A study of Mus musculus with 10 samples.

Results

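Spp1 and Cd44, matched by symbol among the 31053 genes of the deposited feature lists, were followed through 10 single-cell RNA-seq libraries as 2 genes that encode a secreted ligand and one of its receptors. Both were chosen with results of these data known, so their levels, shares and differences are given as a description without a test. The libraries held lineage-labelled cells from distal mouse lung, sorted as EpCAM+RFP+ or EpCAM+YFP+ after tamoxifen, which was given by gavage as 3 doses of 0.2 mg/gbw. In Sftpc-CreERT2; Red2Kras mice, RFP+ cells carried the mutant allele of the construct together with the reporter and YFP+ cells of the same lungs were wildtype, and each colour was sequenced at 4 days and at 2 weeks with 2 replicates. Sftpc-CreERT2; R26R-Confetti mice, which have the same Cre driver without the mutant allele, gave 1 RFP+ and 1 YFP+ library; the labels state no time for them and the study's methods place them at 2 weeks. Cre acts under the surfactant protein C promoter, so the label marks alveolar type 2 (AT2) cells and their descendants. Each sample pooled at least 2 lungs and every group received tamoxifen, which had not washed out by 4 days. The labels do not say which mice went into which replicate. The study's methods count 1 Confetti sample, so its 2 libraries may come from the same pool of lungs. Every n = 2, SD and fit with Confetti takes these 2 libraries as replicates.

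Osteopontin, the product of Spp1, is a secreted phosphoprotein first known from bone matrix and made in quantity by macrophages, by injured epithelium and by many carcinomas. It binds integrins through an Arg-Gly-Asp motif and also binds some forms of Cd44, a cell-surface glycoprotein whose main ligand is the matrix sugar hyaluronan. Cd44 is alternatively spliced, is carried at high level by alveolar macrophages, and connects to the actin cytoskeleton through the ezrin, radixin and moesin proteins.

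Spp1 (ENSMUSG00000029304) lies at chr5:104435118-104441050 on the forward strand of GRCm38 and has 7 annotated transcripts. The gene Gm42793 overlaps it on the same strand, so reads from the pair cannot be told apart where they share sequence. Cd44 (ENSMUSG00000005087) spans chr2:102811141-102901665 on the reverse strand, with 9 transcripts of which 8 are coding. The reads are tags from the transcript end summed per gene, so the isoforms of Cd44 were not measured separately. The coding bases around the Arg-Gly-Asp codons of Spp1 are shown because most of the integrins listed further on bind there, while those with the alpha 4 or alpha 9 chain bind a stretch beside it. The capitals mark the 3 codons at chr5:104439481-104439489 (+), in exon 6 of the 7 exons of transcript Spp1-201, from codon 144 of an 882-base reading frame. The same codons occur in 6 of the 7 transcripts.
Spp1 coding sequence: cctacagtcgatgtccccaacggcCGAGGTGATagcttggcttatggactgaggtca

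The 250 bases before 1 RefSeq start site of each gene (GRCm38.p6) are shown because the transcription factor list below holds Runx and Ets factors. Capitals mark the letters of a Runx motif (TGTGGT, or ACCACA on the other strand) or an Ets motif (AGGAAG, or CTTCCT). The Spp1 window, chr5:104434861-104435110 (+), held ACCACA with its first base 128 bases before the start, AGGAAG at 112 and CTTCCT at 148. The Cd44 window, chr2:102901666-102901915 (-), held AGGAAG at 56 and CTTCCT at 221 and 212. Neither held the AP-1 letters TGANTCA. A second Spp1 start entry, with the window chr5:104435942-104436191 (+), held CTTCCT at 161 and no Runx letters, and is not printed. Among 32851 RefSeq windows of the same length, 14.0% held the Runx letters, 29.5% the Ets letters and 6.75% the AP-1 letters, so a match is common and describes the sequence alone.
Spp1 window: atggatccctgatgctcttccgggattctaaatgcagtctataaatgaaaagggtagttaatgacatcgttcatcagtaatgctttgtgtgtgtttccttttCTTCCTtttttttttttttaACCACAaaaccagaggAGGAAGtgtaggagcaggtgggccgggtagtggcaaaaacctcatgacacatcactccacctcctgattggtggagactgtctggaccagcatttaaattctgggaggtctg
Cd44 window: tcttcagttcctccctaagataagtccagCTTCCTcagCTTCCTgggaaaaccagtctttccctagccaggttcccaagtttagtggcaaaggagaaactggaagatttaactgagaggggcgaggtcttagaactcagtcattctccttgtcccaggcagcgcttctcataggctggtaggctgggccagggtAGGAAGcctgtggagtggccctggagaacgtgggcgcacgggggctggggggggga

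After the study's limits on genes, UMIs (unique molecular identifiers, 1 per captured transcript) and mitochondrial reads, 32698 of 42012 barcodes remained, and 29578 of these were alveolar epithelial cells by their markers. The libraries held 10742481 to 79927159 UMIs, and the median alveolar cell held 3251.5 to 15804 UMIs, deepest at 2 weeks in RFP+ replicate 1. A few libraries stood apart from their group. In RFP+ cells at 4 days, replicate 1 was 66.3% AT2-like cells and 1.18% cells like damage-associated transient progenitors (DATPs, a Krt8-high state seen in alveolar repair), while replicate 2 was 2.87% AT2-like, 47.2% primed AT2-like and 36.1% DATP-like. In YFP+ cells at 4 days, replicate 1 was 75.9% AT2-like and replicate 2 was 1.16% AT2-like and 86.5% primed AT2-like. Immune cells made up 40.7% of cells in YFP+ replicate 2 and 20.5% in RFP+ replicate 2 at 2 weeks. The Confetti libraries had 710 to 715 CPM (UMIs of the gene scaled to a common total) of Xist and no Ddx3y, whereas all Red2Kras libraries had Ddx3y. Xist stood at 96.9 to 572 CPM in replicate 1 of every Red2Kras group and at 0.212 to 0.481 CPM in replicate 2, so the replicates of a group were different pools of mice, and sex make-up and replicate number cannot be told apart. Likewise, mouse line and sex cannot be told apart from the absence of mutant cells in any comparison with Confetti. Alveolar cells held 65359 to 162442 CPM of Sftpc, the AT2 surfactant gene, per library, against 1009 CPM in cells like T or NK cells over the series. The most cell barcodes shared by a pair of libraries was 12 (0.283% of the smaller library), and the largest share was 0.344% (6 barcodes).

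Spp1 was near the detection limit in alveolar cells of the Confetti lungs and reached its highest levels in RFP+ cells at 2 weeks, while YFP+ cells of the same lungs lay between. Levels are counts summed over the alveolar cells of a library, as CPM scaled between libraries by TMM. In RFP+ cells at 2 weeks Spp1 stood at 1889 CPM in replicate 1 and 1066 CPM in replicate 2 (mean 1477 ± 582, SD, n = 2), from 145327 and 43522 UMIs. In YFP+ cells at 2 weeks it was 70.1 and 161 CPM (116 ± 64.4, SD, n = 2). Both RFP+ libraries of that time were above both YFP+ libraries.

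At 4 days the replicates were far apart. RFP+ cells had 5.20 CPM of Spp1 in replicate 1 and 202 CPM in replicate 2 (104 ± 139, SD, n = 2), so the SD exceeded the mean and replicate 2 carried the group. YFP+ cells at 4 days had 0.0939 and 0.702 CPM (0.398 ± 0.430, SD, n = 2), from 1 and 12 UMIs. The lower RFP+ library still exceeded the higher YFP+ library.

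The Confetti libraries gave 0.0603 CPM in RFP+ cells and 0.262 CPM in YFP+ cells, from 1 and 4 UMIs of Spp1. Against their pooled count of 5 UMIs, the level was 9420.1-fold higher in RFP+ cells at 2 weeks (95% exact Poisson interval 4037 to 29012, for the counting error of the Confetti reads alone), 738-fold in YFP+ cells at 2 weeks (316 to 2271), 661-fold in RFP+ cells at 4 days (283 to 2034.5) and 2.54-fold in YFP+ cells at 4 days (1.09 to 7.82). From the highest down, the order of group means was RFP+ at 2 weeks, YFP+ at 2 weeks, RFP+ at 4 days, YFP+ at 4 days and Confetti. YFP+ at 2 weeks and RFP+ at 4 days overlapped, as did YFP+ at 4 days and Confetti.

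On the scale of log2(CPM + 1), RFP+ exceeded YFP+ by 3.72 at 2 weeks (pooled SD of replicates 0.72, n = 2 against 2) and by 4.70 at 4 days (SD 2.54). Over both times the difference was 4.21 (SD 1.87, n = 4 against 4) and the colours overlapped, because RFP+ replicate 1 at 4 days lay below both YFP+ libraries of 2 weeks. Between libraries of the same time and replicate number, RFP+ was higher in each of the 4 pairs, although the labels do not say that a number marks shared lungs. The difference from Confetti was 10.26 for RFP+ cells at 2 weeks (SD 0.43) and 6.54 for YFP+ cells at 2 weeks (SD 0.61). In bulk sums of this kind, fewer cells with the transcript and less transcript per cell cannot be told apart, which is why cells are described further on.

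Cd44 differed little between groups. Confetti alveolar cells had 84.6 CPM of Cd44 in RFP+ and 94.3 CPM in YFP+ cells (89.5 ± 6.88, SD, n = 2 libraries of a single sample). YFP+ cells of Red2Kras lungs had 78.3 and 98.1 CPM at 4 days (88.2 ± 14.0) and 99.2 and 67.1 CPM at 2 weeks (83.1 ± 22.6). These 6 libraries without the mutation spanned 67.1 to 99.2 CPM with no order by mouse line or time.

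RFP+ cells had 100.5 and 163 CPM of Cd44 at 4 days (132 ± 44.0, SD, n = 2) and 154 and 65.8 CPM at 2 weeks (110.0 ± 62.6). The highest and the lowest of all 10 libraries were therefore both RFP+. On the log2(CPM + 1) scale, RFP+ minus YFP+ was 0.54 at 4 days (pooled SD 0.38), 0.30 at 2 weeks (SD 0.67) and 0.42 over both times (SD 0.54). RFP+ minus Confetti was 0.17 at 2 weeks (SD 0.61). YFP+ minus Confetti at 2 weeks was -0.13 (SD 0.29). The groups overlapped in each of these comparisons except RFP+ against YFP+ at 4 days, where 100.5 and 98.1 CPM were the nearest values. Both RFP+ libraries of 4 days were also above both Confetti libraries, with a mean 1.47-fold the pooled Confetti level.

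**Figure D1:**
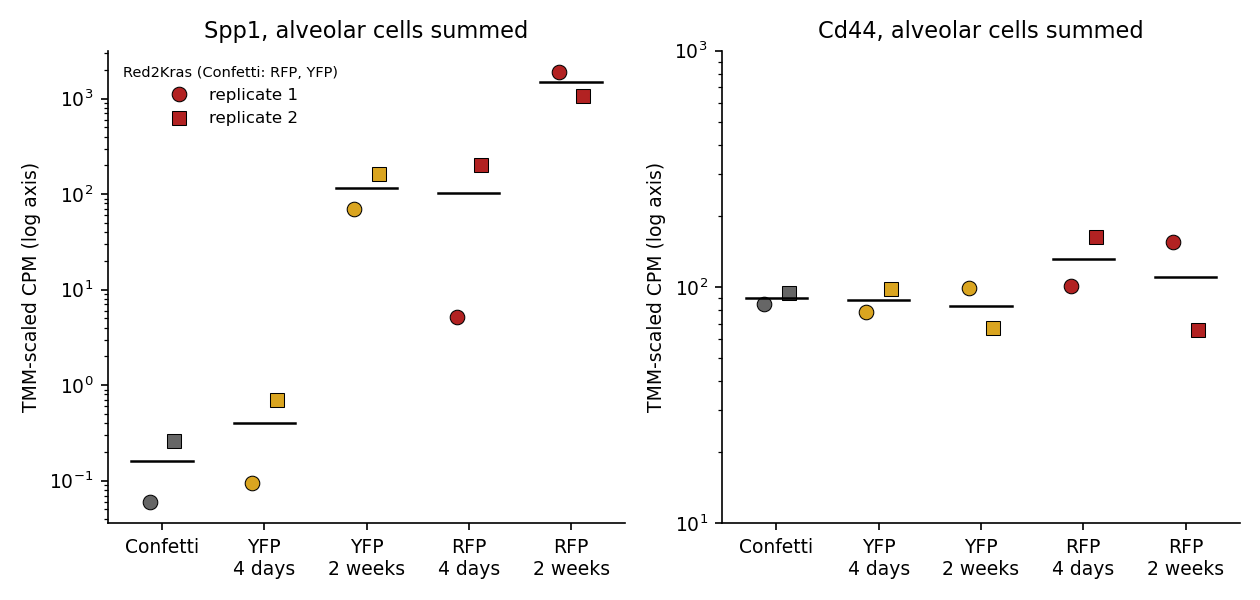
Levels of Spp1 (left) and Cd44 (right) in alveolar cells summed per library, in TMM-scaled CPM on log axes; points are libraries (circle and square for replicates 1 and 2, or Confetti RFP and YFP) and lines are group means. Spp1 runs from 0.0603 to 1889 CPM with RFP+ at 2 weeks on top, whereas Cd44 stays between 65.8 and 163 CPM.

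The share of alveolar cells with a UMI moved with depth, so it is also given after each cell was thinned to 2000 UMIs. Spp1 was seen in 36.0% and 33.3% of RFP+ alveolar cells at 2 weeks, and in 15.8% and 21.8% after thinning. In YFP+ cells of the same time the shares were 0.474% and 3.77%, or 0.426% and 2.78% thinned. At 4 days Spp1 was seen in 0.377% and 6.36% of RFP+ cells and in 0.0591% and 0.0681% of YFP+ cells, and in Confetti cells in 0.0263% and 0.101%. As a measure of free RNA, cells like T or NK cells held 15.2 CPM and 18.2 CPM of Spp1 in RFP+ replicates 1 and 2 of 2 weeks, each from 1 UMI.

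A few cells carried most of the transcript. The 10% of cells with most Spp1 held 98.0% and 88.9% of the Spp1 UMIs of RFP+ replicates 1 and 2 at 2 weeks, with up to 2067 and 1186 UMIs in 1 cell. With a limit of 10 UMIs, chosen after the data were seen, 489 of 4049 and 469 of 2771 RFP+ cells passed at 2 weeks (12.1% and 16.9%), against 14 of 4223 and 17 of 1007 YFP+ cells. The limit was set on unthinned counts, and depth differed. The median cell held 15804 and 13380 UMIs in these RFP+ libraries, 5862 and 6701 in these YFP+ libraries and 4004 and 3251.5 in Confetti. At 4 days 3 and 36 RFP+ cells passed, and no cell did in either YFP+ library of 4 days or in either Confetti library. A count of 0 in 3804 Confetti RFP+ cells allows a share of up to 0.0789%, and these intervals and limits cover counting error only. Such cells held 99.2% and 92.7% of the alveolar Spp1 UMIs of YFP+ replicates 1 and 2 at 2 weeks, so the YFP+ level rested on 14 and 17 cells.

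UMIs of Cd44 were spread over many cells. Over the series, thinned, they were seen in 16.5% of alveolar cells (median depth 5557 UMIs), 6.85% of ciliated cells (5802 UMIs) and 8.71% of endothelial-like cells (3734 UMIs), so part of each share below may be free RNA or a low level, which was not tested. Cd44 was seen in 74.7% and 49.0% of RFP+ cells at 2 weeks, 39.0% and 29.2% of YFP+ cells at 2 weeks, and 27.5% and 28.7% of Confetti cells. After thinning these shares were 23.8% and 11.8%, 15.6% and 10.0%, and 14.8% and 17.3%, and the groups overlapped. At 4 days Cd44 was seen in 35.4% and 44.9% of RFP+ and in 35.8% and 40.2% of YFP+ cells, which overlapped. The thinned shares were 15.9% and 23.4% in RFP+ and 12.95% and 15.5% in YFP+ cells, which did not overlap, 15.9% and 15.5% being the nearest. The 10% of cells with most Cd44 held 43.0% to 53.8% of its UMIs in every library.

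Alveolar cells were clustered and named from marker lists as AT2-like, primed AT2-like (Lcn2 and Lrg1 high), DATP-like or cycling. The clusters that met no list by its rules kept their numbers. Spp1 and Cd44 were left out of the variable genes that clustered the cells, while genes that run with them were not removed. Spp1 still leads cluster 10 when all genes are ranked, and its level by cluster is given as a description. No cell of the AT2-like or primed AT2-like states reached 10 Spp1 UMIs in any library.

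In RFP+ replicate 1 at 2 weeks, the 310 cells of cluster 10 (led by Spp1, the chaperone gene Clu, and the protease genes Gzme and Mcpt8) were 7.66% of alveolar cells and held 85.8% of the Spp1 UMIs, at 19652 CPM. DATP-like cells of that library had 1189 CPM. Replicate 2 had 5 cells of cluster 10. There the 1112 DATP-like cells, 40.1% of alveolar cells, held 70.7% of the Spp1 UMIs at 2029.7 CPM, and cluster 8 (led by Meg3 and Trf) held 23.6% at 495 CPM, near the 502 CPM of its 100 cycling cells. The cluster that held most of the Spp1 UMIs thus differed between the replicates.

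Primed AT2-like cells of RFP+ replicate 1 at 2 weeks had 14.8 CPM of Spp1, from 195 UMIs in 17.4% of 984 cells. The 15.2 CPM of its cells like T or NK cells rests on 1 UMI (95% exact Poisson interval 0.385 to 84.8 CPM), so the part of free RNA in this level was not settled. Its 76 AT2-like cells had 32.1 CPM from 23 UMIs. At 4 days DATP-like cells held 84.5% and 83.9% of the alveolar Spp1 UMIs of RFP+ replicates 1 and 2, although they numbered 44 and 517 cells. Their Spp1 level was 226 and 454 CPM, and in replicate 1 the 3 cells with at least 10 UMIs held 77.7% of the library's 103 alveolar Spp1 UMIs. Thinned to 2000 UMIs, Spp1 was seen in 6.98% and 11.2% of DATP-like RFP+ cells at 4 days and in 25.8% and 27.9% at 2 weeks. In YFP+ cells at 2 weeks, 10 cells of cluster 10 held 79.2% of the alveolar Spp1 UMIs of replicate 1, and 30 DATP-like cells held 52.1% in replicate 2. DATP-like YFP+ cells at 2 weeks had 1118 and 1017 CPM, against 1189 and 2029.7 CPM in their RFP+ counterparts, but the thinned shares of YFP+ cells with Spp1 were 21.1% and 46.7%. Cluster 8 had 1286 CPM in the 25 YFP+ cells of replicate 2 against 495 CPM in RFP+ cells. Cluster 10 had 9915 CPM in the 10 YFP+ cells of replicate 1 against 19652 CPM in RFP+ cells. The colours thus had no order common to all these states, and the YFP+ values rest on few cells. Whether the 19 and 30 DATP-like YFP+ cells carried the mutation was not tested.

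Cd44 was higher in DATP-like than in AT2-like cells of every library. The DATP-like level was 409 and 83.6 CPM in RFP+ cells at 2 weeks against 76.8 and 32.6 CPM in AT2-like cells, and 302 and 263 CPM at 4 days against 84.6 and 50.7 CPM. In the Confetti libraries only 5 and 1 cells were DATP-like, so their values carry little. Cluster 10 of RFP+ replicate 1 had 224 CPM of Cd44, and cluster 8 had 111 CPM in replicate 1 and 57.6 CPM in replicate 2. Cluster 5, led by the interferon-response genes Ly6i and Ifitm3, had 327 CPM of Cd44 in the 83 cells of YFP+ replicate 1 at 2 weeks and no Spp1 UMI.

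**Figure D2:**
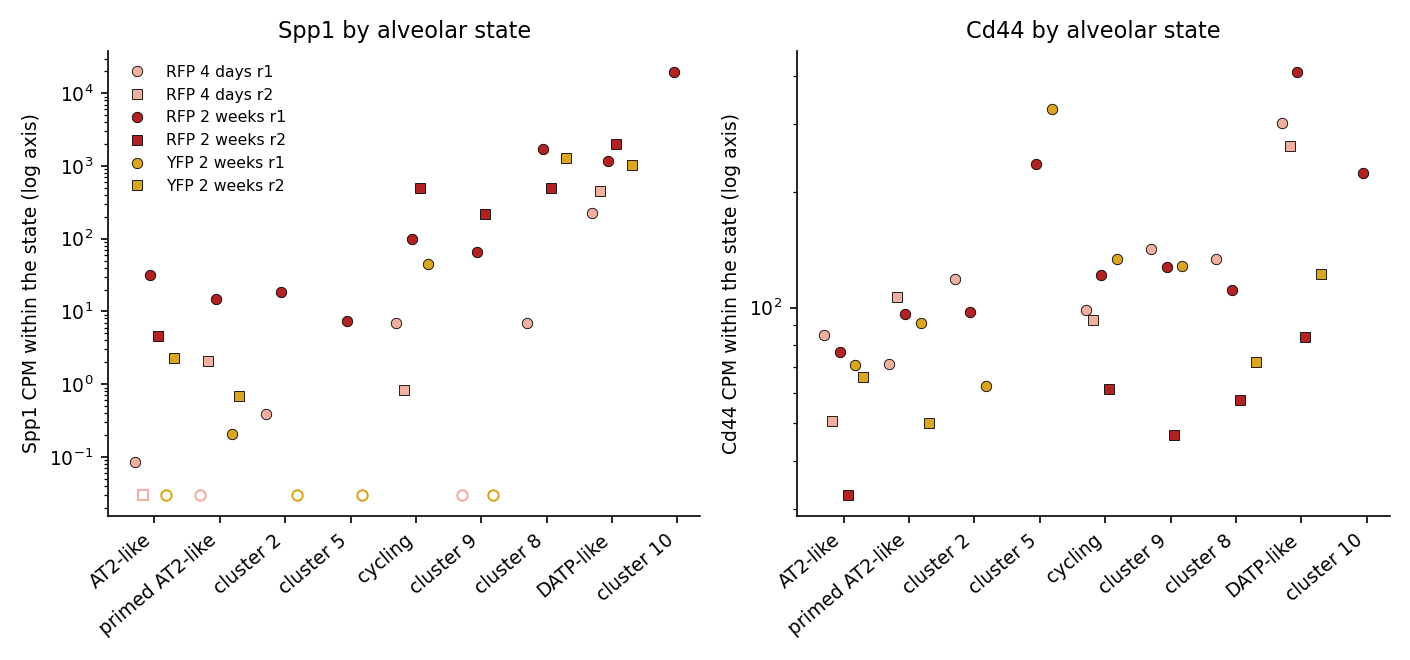
Level of Spp1 (left) and Cd44 (right) within each alveolar state, in CPM on log axes, for RFP+ libraries of both times and YFP+ libraries of 2 weeks; states of under 20 cells in a library are left out and open symbols at the foot of the left plot mark no UMI. Spp1 is highest in cluster 10 of RFP+ replicate 1 at 2 weeks (19652 CPM), and DATP-like Cd44 runs from 83.6 to 409 CPM.

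In RFP+ cells of 2 weeks, those rich in Spp1 had lower levels of every gene of the AT2 marker list except Sftpb and higher levels of every gene of the DATP marker list in both replicates. Sftpb was at 6092 against 6223 CPM in replicate 1 and at 7205 against 6965 CPM in replicate 2. At 4 days, the 36 Spp1-rich cells of RFP+ replicate 2 were lower in every gene of the AT2 list (Sftpc 2093 against 68138 CPM) and higher in the DATP list (Krt8 1830.3 against 669.6 CPM, Cldn4 827 against 179 CPM), except for Ndrg1 (146 against 175 CPM) and Lgals3 (989.5 against 1251 CPM). In RFP+ replicate 1 at 2 weeks, the 489 cells with at least 10 Spp1 UMIs had 11380.2 CPM of Sftpc against 81266 CPM in the other cells, and in replicate 2 the values were 38498 and 79371 CPM. Cldn4, a tight junction gene, was at 464 against 83.9 CPM and at 324 against 193 CPM. Itga2, the collagen-binding integrin, was at 338 against 68.7 CPM and at 287 against 109 CPM. Areg, an EGF receptor ligand, was at 2737 against 674 CPM and at 1750.0 against 1092 CPM. Dlk1, a membrane protein of progenitors, was at 1382 against 180.4 CPM and at 434 against 275 CPM, and Cd177, a surface gene known from neutrophils, at 98.7 against 16.1 CPM and at 118 against 30.3 CPM.

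The Spp1-rich YFP+ cells of 2 weeks, 14 and 17 in number, were described in the same way. Their Itga2 level was 358 and 249 CPM against 1.80 and 10.8 CPM in the other YFP+ cells, and their Sftpc level was 8667 and 30102 CPM against 132488 and 169642 CPM. Of the Spp1-rich RFP+ cells of 2 weeks, 102 of 489 and 96 of 469 held a UMI of any of the immune genes listed, Cd53 in the most. In cells of these libraries without a Spp1 UMI the share was 4.09% and 7.58%. The Spp1-rich cells were also deeper, with a median of 21931 and 17915 UMIs against 15804 and 13380 UMIs over all alveolar cells. Ptprc, the pan-leukocyte gene, was seen in 0.204% and 0.640% of the Spp1-rich RFP+ cells at 2 weeks and Tyrobp, a myeloid adaptor, in 0.613% and 4.69%. In YFP+ replicate 1, Ptprc, Laptm5, Tyrobp, Fcer1g, Cd52 and Coro1a were each seen in 1 of the 14 cells, with Tyrobp at 56.5 CPM against 1.26 CPM and Fcer1g at 113 CPM against 1.92 CPM in the others. Whether an immune cell, or a doublet missed by the caller described below, is among the 14 was not tested. Cd53, a tetraspanin of leukocytes, was higher in the Spp1-rich RFP+ cells, seen in 17.8% and 10.7% at 12.7 and 8.35 CPM against 0.649 and 2.28 CPM in other cells. A doublet caller marked 19 of the 489 and 8 of the 469 cells, and 5 barcodes of each set were also present in another library. The caller marked 0 of the 14 and 0 of the 17 YFP+ cells, and 3 of each of these sets held a UMI of an immune gene.

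Cells with Spp1 also differed in the other genes seen beside it. With every cell thinned to 2000 UMIs, Krt8 was seen in 87.6% of RFP+ cells with Spp1 against 61.0% of those without in replicate 1 at 2 weeks, and in 84.6% against 67.2% in replicate 2. The transporter gene Slc34a2, an AT2 marker, was seen in 40.8% against 83.3% and in 47.6% against 66.4%. Mmp3, a protease that cuts osteopontin, was seen in 8.0% against 0.2% and in 1.5% against 0.3%. Of the receptor integrins, Itgb1 was seen in 44.3% against 33.5% and in 40.3% against 35.4%, and Itgav in 13.9% against 8.1% and in 7.8% against 5.9%. Msn, a linker of Cd44 to actin, was seen in 33.8% against 18.1% in replicate 1 but in 24.9% against 26.1% in replicate 2. These are shares of cells within single libraries, and cells are not replicates.

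Spp1 and Cd44 were met in the same cells more often than independence gives over the whole of RFP+ replicate 1 of 2 weeks. The same held for RFP+ replicate 2 of 4 days, and both libraries mix states. After thinning, counts were only slightly above independence in RFP+ replicate 2 of 2 weeks and in DATP-like cells of that time. They were about equal to it in cluster 10. No difference was tested. After thinning, 220 RFP+ cells of replicate 1 at 2 weeks held both, where 152 would if the genes were independent, and in replicate 2 the counts were 80 and 71.0. Cd44 was seen in 34.4% of cells with Spp1 and 21.8% of cells without in replicate 1, and in 13.3% and 11.4% in replicate 2. Within cluster 10 of replicate 1 the counts were 95 and 94.7, within its DATP-like cells 70 and 61.7, and within DATP-like cells of replicate 2 they were 50 and 42.1. In cluster 9 of replicate 1 they were 11 and 11.2, and in cluster 8 of replicate 2 they were 26 and 26.9. Without thinning, cluster 2 of replicate 1 had 24 such cells against 28.9, and DATP-like cells of replicate 2 had 261 against 208.5. Over all alveolar cells of each library, Pearson's r between the genes was 0.20 and 0.07, a description over cells that share a library and differ in depth. In thinned RFP+ cells of 4 days, replicate 1 had 1 cell with both genes against 0.956, and replicate 2 had 29 against 15.2. In thinned YFP+ cells of 2 weeks, replicate 1 had 9 against 2.81 and replicate 2 had 1 against 2.81.

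Macrophages were the second source of Spp1 in these libraries, although the sort was for EpCAM+ cells. Over the series, alveolar cells held 90.1% of all Spp1 UMIs and immune cells 9.37%, but the split differed by library. Immune cells held 0.233% of the Spp1 UMIs of RFP+ replicate 1 at 2 weeks, 23.5% of replicate 2, 18.4% of YFP+ replicate 1 and 83.5% of YFP+ replicate 2. They were 3.51%, 20.5%, 3.71% and 40.7% of the cells of those libraries, so the share of immune cells moved with it. In the Confetti libraries, where alveolar cells held 0.617% and 1.95% of the Spp1 UMIs, cells like endothelium held 71.0% and 73.7% and immune cells 24.7% and 18.0%.

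Alveolar macrophage-like cells had Spp1 in every library. Their level was 192 and 180.0 CPM in Confetti RFP+ and YFP+ libraries, from 35 and 34 cells. In Red2Kras lungs it was 165 and 457 CPM in YFP+ libraries of 4 days, 140.0 and 809 CPM in RFP+ libraries of 4 days, 734 and 834 CPM in YFP+ libraries of 2 weeks, and 599 and 1145 CPM in RFP+ libraries of 2 weeks. All 4 libraries of 2 weeks and replicate 2 of each colour at 4 days were above both Confetti libraries, while replicate 1 of each colour at 4 days was not. In these cells the RFP+ and YFP+ libraries of 2 weeks overlapped, unlike in alveolar cells. Macrophages carry no lineage label by design, so the colour of their library says which sort they were collected with.

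C1q macrophage-like cells reached 5765 CPM of Spp1 in RFP+ replicate 2 and 4792.5 CPM in YFP+ replicate 2 at 2 weeks, from 75 and 34 cells, against 369 and 1489 CPM in the replicates 1, from 19 and 14 cells. Endothelial-like cells had 495 and 523 CPM in the Confetti libraries and 480.3 and 796 CPM in replicate 1 of RFP+ and of YFP+ at 4 days. Cells like T or NK cells and ciliated cells had 7.88 and 10.2 CPM over the series.

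Macrophages were rich in Cd44. Alveolar macrophage-like cells had 1569.9 and 1579.7 CPM of Cd44 in the Confetti libraries and 656 to 1929 CPM in the 8 Red2Kras libraries. The replicates of each Red2Kras group were apart, at 1149.9 against 1929 CPM in RFP+ and 929.9 against 1698 CPM in YFP+ at 4 days, and at 656 against 1513 CPM in RFP+ and 744 against 1394 CPM in YFP+ at 2 weeks. The lower value was that of replicate 2 each time, the same split as that of Xist, and the labels name no batch. Immune cells held 65.8% and 89.1% of the Cd44 UMIs of the replicates 2 of RFP+ and YFP+ at 2 weeks, against 6.11% and 21.4% of the replicates 1.

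**Figure D3:**
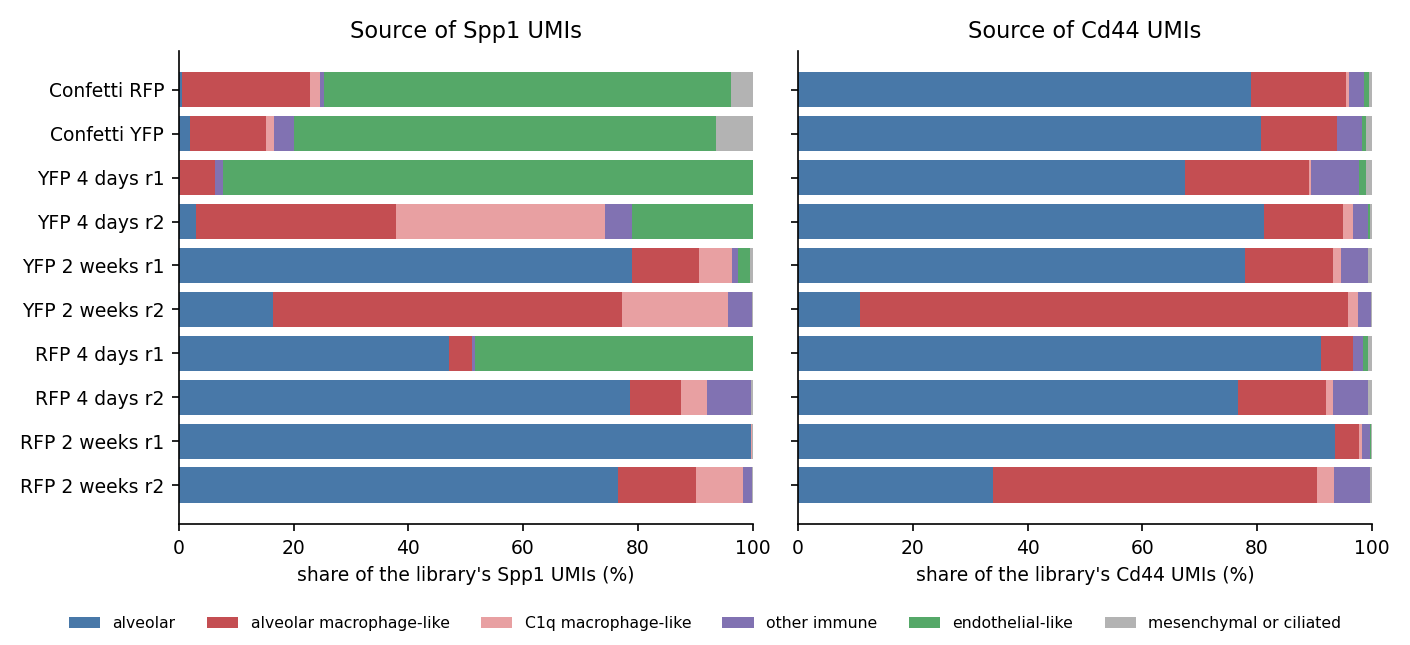
Share of each library's Spp1 UMIs (left) and Cd44 UMIs (right) held by each cell class, in percent; bars add to 100 within a library and classes are named from markers. The alveolar share of Spp1 is 99.7% in RFP+ replicate 1 at 2 weeks and 0.617% in Confetti RFP+, and the macrophage-like share of Cd44 is largest in replicates 2 of 2 weeks.

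The genes around the pair were taken from 6 lists of 54 genes in all: receptor integrins, Cd44 ligands and hyaluronan enzymes, genes beside Spp1, enzymes that act on either protein, linkers and splicing factors of Cd44, and transcription factors linked to Spp1. Alveolar counts were tested by edgeR's quasi-likelihood test with Benjamini-Hochberg adjustment over all genes. The fit took the 2 Confetti libraries as replicates, although the study's methods count a single Confetti sample. Comparing RFP+ cells of 2 weeks with Confetti, 3 of the 40 list genes tested were called, 2 higher and 1 lower, where 5.32% of all 13772 genes tested were called. The list genes had a median log2 fold change of 0.48 against 0.03 over all genes, and 19 of the 40 had an unadjusted p under 0.05, as had 4282 of the 13772 genes. Their share of calls was near that of all genes.

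Etv4, an Ets factor downstream of receptor tyrosine kinases, was at 0.36 and 0.39 CPM in Confetti libraries and at 17.4 and 29.7 CPM in RFP+ cells of 2 weeks. Its log2 fold change was 5.94 ± 0.91 (SE, edgeR adjusted p = 0.034). Mmp3 (stromelysin) had no UMI in either Confetti library and 36.7 and 15.7 CPM in RFP+ cells of 2 weeks, which is at least 278-fold higher when 3 counts over both Confetti libraries are taken as the limit (edgeR adjusted p = 0.037). Etv5, an Ets factor that maintains AT2 cells, fell from 335 and 413 CPM to 115 and 52.7 CPM (log2 fold change -2.15 ± 0.43, SE, edgeR adjusted p = 0.044). All 3 calls were lost when either YFP+ library of 4 days was left out, and 43 and 38 of all genes were then called. They were also lost when either Confetti library or RFP+ replicate 2 of 2 weeks was left out. Those fits had 1 library in a compared group, and their calls over all genes fell too. Mmp3 was lost without RFP+ replicate 1 of 2 weeks, and Etv5 when either YFP+ library of 2 weeks was left out. Without RFP+ replicate 1 or replicate 2 of 4 days, 10 list genes were called, when 1919 of 13638 and 1907 of 13765 genes were called in all.

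None of the receptor integrins was called in the same comparison. Of 8 tested, 4 had a positive log2 fold change and their median was -0.01. Itgb1, the shared beta chain of many integrins, had 219 and 206 CPM in Confetti and 228 and 234 CPM in RFP+ cells of 2 weeks (log2 fold change 0.12 ± 0.27, SE). Itga9 had 92.6 and 96.5 CPM against 58.1 and 66.1 CPM (-0.61 ± 0.26). Itga5 had 3.38 and 5.03 CPM in Confetti and 3.37 and 0.196 CPM in RFP+ cells (-1.18 ± 1.09), the replicates lying far apart, and Itgb7 never exceeded 2.67 CPM in any library (2.89 ± 1.28). The 2 other chains that pair with osteopontin in textbooks, Itga4 and Itga8, had 8 and 4 UMIs over all alveolar cells and were not tested.

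Cd44 ligands and hyaluronan enzymes gave no call among 9 genes tested, with a median log2 fold change of 0.82. Cd74, the invariant chain that pairs with Cd44 as a receptor of the cytokine Mif, had 6518 and 5649 CPM in Confetti and 4150 and 3171 CPM in RFP+ cells of 2 weeks (-0.73 ± 0.40, SE). Mif had 261 and 242 CPM against 433 and 456 CPM (0.82 ± 0.36). Hmmr, a hyaluronan receptor of dividing cells, had 8.08 and 7.13 CPM against 23.8 and 13.01 CPM (1.28 ± 0.53). The hyaluronan synthase gene Has2 had no UMI in Confetti and 0.637 and 0.0245 CPM in RFP+ cells of 2 weeks, so nearly all of it came from replicate 1.

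The genes that lie beside Spp1 in the same matrix protein family were silent in these cells. Ibsp, Dmp1, Dspp and Mepe, which serve bone and teeth, had 0 UMIs over all 29578 alveolar cells, against 193574 of Spp1. Mepe, the nearest, ends 96507 bases before Spp1, and on the other side Pkd2, outside that family, begins 18400 bases after Spp1 and had 3584 UMIs.

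Among the enzymes, Plau (urokinase) had 0.181 and 0.196 CPM in Confetti and 9.66 and 4.38 CPM in RFP+ cells of 2 weeks (5.18 ± 1.47, SE, edgeR adjusted p = 0.067). The sheddases Adam10 and Adam17, which release the Cd44 ectodomain, had log2 fold changes of -0.35 ± 0.22 and -0.62 ± 0.23. Of the linkers, Msn had 72.6 and 73.0 CPM against 129 and 158 CPM (0.98 ± 0.29, edgeR adjusted p = 0.075), Ezr 169 and 166 CPM against 274 and 269 CPM (0.70 ± 0.31), and Rdx -0.36 ± 0.28. Nf2 (merlin), which competes with these linkers for Cd44, was at -0.81 ± 0.24 (edgeR adjusted p = 0.074). Of 10 transcription factors tested, 7 had a positive value and the median was 1.28, and besides the Ets factors above, the AP-1 gene Fosl1 had 1.63 and 1.90 CPM in Confetti against 21.2 and 16.6 CPM (3.42 ± 0.91, edgeR adjusted p = 0.059). Fos and Jun had 1.45 ± 0.50 and 1.11 ± 0.54.

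**Figure D4:**
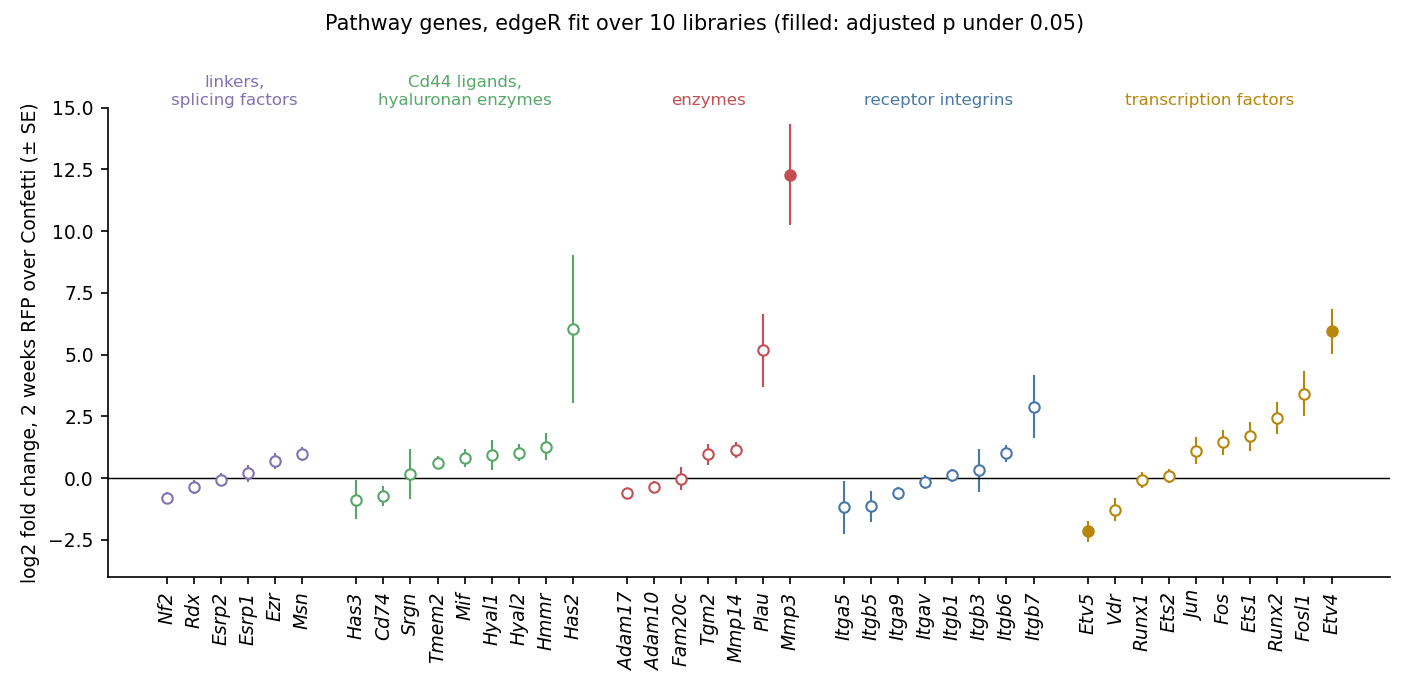
Fitted log2 fold change of the 40 list genes tested, RFP+ cells of 2 weeks over Confetti, with standard errors, grouped by list; filled points have an edgeR adjusted p under 0.05. Etv4 and Mmp3 are the filled points above 0 and Etv5 the one below; the fitted values of Mmp3 and Has2, which have no Confetti UMI, depend on the fit's prior count.

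No list gene was called by edgeR in the other comparisons, which share libraries with the one above and with each other. For RFP+ against YFP+ over both times it was 0 of 39 (0% of 12840 genes called), with 16 at an unadjusted p under 0.05 (2771 of all genes) and 9 by DESeq2 (1264 of all genes). The count was 10 without RFP+ replicate 1 of 4 days (1478 of 13126 genes) and 1 without RFP+ replicate 2 of 4 days or YFP+ replicate 2 of 2 weeks (9 and 5 of all genes). With the replicate number as a block it was 6, and 920 of all 13200 genes (Ets1, Etv4, Fosl1, Mmp3 and Plau higher, Etv5 lower). For RFP+ against YFP+ at 2 weeks it was 0 of 40 (0.00726% called over all genes), with 12 unadjusted (2252 of all genes) and 3 by DESeq2 (465). At 4 days it was 0 of 40 (0% called), with 6 unadjusted (793 of all genes) and 4 by DESeq2 (111), and 4 by edgeR without RFP+ replicate 1 (199 of 13638). For YFP+ cells of 2 weeks against Confetti it was 0 of 40 (0.0218% called), with 3 unadjusted (776 of all genes) and 0 by DESeq2 (102).

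The genes whose levels ran most like Spp1 over the 10 libraries were Tm4sf1 (r = 0.99), Gzme (0.99), Clu (0.98), Prss22 (0.98), Gkn2 (0.97), Rhof (0.97), Cdkn2a (0.97) and Gsto1 (0.97), on log2(CPM + 1). Tm4sf1, a tetraspanin-like surface protein, had 0.470 to 1.67 CPM in Confetti, YFP+ of 4 days and RFP+ replicate 1 of 4 days, and 77.8 and 91.0 CPM in RFP+ cells of 2 weeks. Cdkn2a, which encodes the cell cycle inhibitors p16 and p19, had 35.4 and 62.0 CPM in RFP+ cells of 2 weeks and 6.73 CPM or less in libraries outside 2 weeks. Cd44 had an r of 0.25 with Spp1 and was in place 5436. The 10 points share groups, lungs and depth, so these are descriptions.

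Over single RFP+ cells of 2 weeks the genes most like Spp1 were Gzme (r = 0.80 in replicate 1 and 0.45 in replicate 2), Mcpt8 (0.78 and 0.36), Clu (0.68 and 0.42), Vcam1 (0.63 and 0.43), Prss22, Krt7, Ptprn and Srd5a1. Gzme and Mcpt8 encode proteases best known from lymphocytes and mast cells or basophils. Gzme was at 567 and 197 CPM in alveolar RFP+ cells of 2 weeks and had no UMI in Confetti. All values were lower in replicate 2, which had 5 cells of cluster 10. Cd44 was in place 728 of 9285 genes.

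The genes most like Cd44 over the libraries were different ones, led by the cell cycle genes E2f7 (r = 0.96) and Prr11 (0.94) and followed by Hccs, Prlh, Tor1aip2, Ints2, Nup85 and Traf3. E2f7 had 0.931 and 0.482 CPM in RFP+ and YFP+ replicate 2 of 2 weeks, below the other 8 libraries. Over single RFP+ cells of 2 weeks, Cd44 ran with Itga2 (r = 0.43 and 0.20), Emp1 (0.44 and 0.16), Ecm1 (0.44 and 0.12), Itga3 (0.38 and 0.16), Fam107b, Fxyd5, Actn1 and Pabpc1, a set with adhesion and cytoskeleton genes in it. None of the 8 was among the 8 most like Spp1 over cells.

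**Figure D5:**
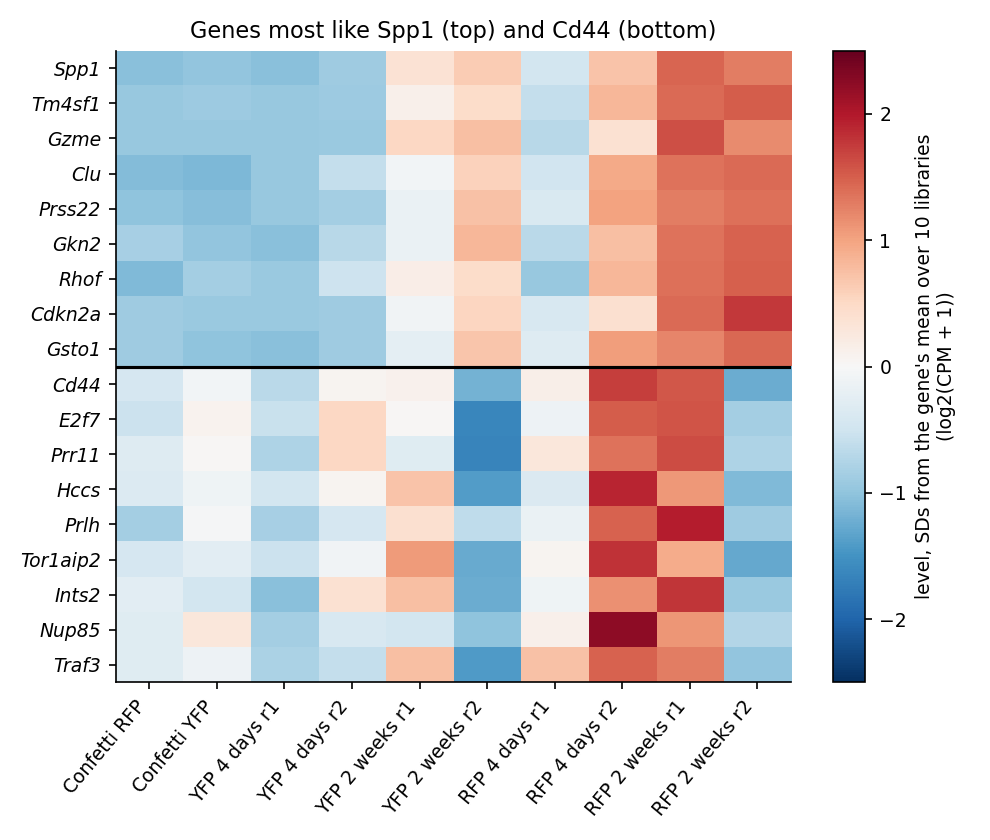
Levels over the 10 libraries of Spp1 and the 8 genes most like it (top) and of Cd44 and the 8 genes most like it (bottom), as SDs from each gene's mean of log2(CPM + 1). The upper set is highest in RFP+ libraries of 2 weeks, and the lower set is led by Cd44 itself, which is highest in RFP+ replicate 2 of 4 days (163 CPM) and RFP+ replicate 1 of 2 weeks (154 CPM).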

How the data were processed

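Single-cell libraries were made by the authors with 10x Genomics kits (version 2 in the labels, version 3 in the study's methods) and sequenced on a NovaSeq. UMI counts per gene and barcode, deposited by the authors, were made against GRCm38 with Cell Ranger (3.1.0 per the processing notes, 5.0.1 in a file header). The counts were not normalized. Transgenes were not in the reference.

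Following the study's methods, barcodes with under 1000 genes, over 50000 UMIs or over 15% mitochondrial reads were removed. Cells were clustered (scanpy 1.11.5, 5000 variable genes, 30 components, 20 neighbours, Louvain resolution 0.8) and named from markers. Spp1 and Cd44 were taken out of the variable genes, and immune cells were clustered again with fewer variable genes. A doublet caller marked 940 cells, which were kept. Counts were summed per library over alveolar cells and tested with edgeR 4.0.16 (adjusted p under 0.05), with DESeq2 1.42.0 as an alternative; the fit was tested on simulated data. Differences used log2(CPM + 1). Intervals are exact at 95% and cover counting error only.

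The 2 genes and all lists were chosen with earlier results of these data known. Named list genes are those called in any comparison and, in each list, the 2 with the highest mean CPM and the 2 with the largest change against Confetti in RFP+ cells of 2 weeks; like genes are the 8 with the highest r. Replicates of a group differed in Xist and so came from different pools of mice, which the labels do not describe. The mutated gene itself is not reported here.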

Additional observations from a re-analysis of the deposited data

Results flagged for a closer look

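Spp1 in cells left out of the alveolar sums exceeded the level of the same cell type in both Confetti libraries in several Red2Kras libraries. In alveolar macrophage-like cells it was 809 CPM in RFP+ replicate 2 and 457 CPM in YFP+ replicate 2 of 4 days, against 192 and 180.0 CPM in Confetti. At 2 weeks it was 599 and 1145 CPM in RFP+ replicates 1 and 2 and 734 and 834 CPM in YFP+ replicates 1 and 2. In endothelial-like cells it was 796 CPM in YFP+ replicate 1 of 4 days, against 495 and 523 CPM in Confetti.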

How the results depend on the processing

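The Spp1 differences kept their sign under every alternative run, and 49 of 57 alternatives stayed within 1 SD of the replicates. When all filtered cells were summed in place of alveolar cells, the Spp1 difference on the log2 scale was 1.79 for RFP+ against YFP+ over both times, 2.76 at 2 weeks, 0.82 at 4 days, 6.97 for RFP+ and 4.21 for YFP+ cells of 2 weeks against Confetti, and that of Cd44 in the last comparison was 0.97. With a pseudocount of 0.1 CPM the Spp1 differences from Confetti were 12.53 and 8.79, and with clusters 8 and 10 left out, an alternative chosen after seeing the data, that of RFP+ cells was 9.11. Leaving out 1 library at a time gave Spp1 differences of 3.06 to 5.94, 3.13 to 4.32, 2.18 to 7.22, 9.85 to 10.67 and 5.94 to 7.13 in the same order of comparisons, and Cd44 differences of 0.25 to 0.68, -0.31 to 0.91, 0.20 to 0.89, -0.44 to 0.78 and -0.41 to 0.15, so that the sign of Cd44 changed in 3 of the 5.

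The number of list genes called moved with the tool, the filter and single libraries. DESeq2 called 9, 3, 4 and 9 list genes in the first 4 comparisons (1264, 465, 111 and 2202 of all genes), and edgeR without a filter on low counts called 9, 7, 6, 17 and 2 (1941, 1381, 504, 3243 and 534 of all genes). With all cells summed, 0 were called for RFP+ cells of 2 weeks against Confetti (0 of all 15146 genes). Without cells holding an immune marker UMI, 1 was called over both times (11 of all 12758 genes). Leaving out 1 library at a time gave 0 to 10 over both times, when 0 to 1478 of all genes were called. In the other comparisons such a fit has 1 library in a group. There the list count moved at 4 days and for RFP+ cells against Confetti, where the calls over all genes moved too. It did not move at 2 weeks or for YFP+ cells against Confetti. With the replicate number as a block, 6 list genes were called over both times (920 of all genes) and 0 at either time alone. Same-numbered libraries deviated together at 4 days (r = 0.47) and at 2 weeks (r = 0.63), and less across times (r = 0.02 to 0.29), but the labels do not say that a number marks shared lungs. The cause of these shifts was not tested. Shares of cells with a UMI moved in 6 of 30 alternatives for Spp1 and in 18 of 30 for Cd44.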

Other observations

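Within the immune cells, Spp1 and Cd44 were highest in different clusters. C1q macrophage-like cells fell into 2 clusters: the 94 cells of one, led by Mmp12, Wfdc17 and Spp1 itself, had 6309 CPM of Spp1 and held 30.8% of the immune Spp1 UMIs, and the 129 cells of the other, led by Apoe and C1qa, had 124 CPM. Their Cd44 levels were 441 and 92.0 CPM. Over 5 clusters of alveolar macrophage-like cells, Spp1 ran from 345 to 1126 CPM, and the cluster of 186 cells with the lowest Spp1 had the highest Cd44, 1685 CPM against 666 to 938 CPM in the others. That cluster was mixed, with at most 19.9% of its cells from any library (YFP+ replicate 1 of 2 weeks). Other clusters drew 86.2% and 71.6% of their cells from YFP+ replicate 2 and 94.9% from RFP+ replicate 2 of 2 weeks. The macrophages of both these libraries were low in Cd44, so the clusters and the libraries cannot be told apart here. Spp1 and Cd44 were left out of the variable genes that clustered these cells, while genes that run with them were not removed. The values are given as a description. An unnamed immune cluster of 182 cells held 59199 CPM of Sftpc, the AT2 surfactant gene, with 412 CPM of Spp1 and 334 CPM of Cd44.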
